A study of Homo sapiens with 12 samples.

Results

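The BCL2 family members described here are the 6 survival proteins BCL2, BCL2L1, MCL1, BCL2L2, BCL2A1 and BCL2L10 and the 3 pore effectors BAX, BAK1 and BOK, taken by gene name, 9 of the 58191 rows of the expression table. Their messenger RNA levels came from 12 RNA-seq libraries, 3 for each of 4 groups of leukaemia cell lines: K562 with EVI1 overexpression, K562 control (labelled wild type), EVI1 overexpression labelled MOLM14, and control labelled MOLM14 (wild type). K562 is a chronic myeloid leukaemia blast crisis line that carries BCR-ABL1. MOLM14 is an acute monocytic leukaemia line known for a KMT2A fusion and an internal tandem duplication of FLT3. MECOM encodes EVI1, a transcription factor with zinc fingers that binds DNA in blood stem cells. The labels do not give the vector, the promoter, the selection, whether a line was 1 clone, or what the control cells carried. The title of the series names venetoclax, an inhibitor of BCL2, and capivasertib, an inhibitor of AKT, but no library bears a drug label.

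BCL2 family proteins decide whether the mitochondrial outer membrane stays sealed. Survival members such as BCL2, BCL-xL (the main product of BCL2L1) and MCL1 hold BAX and BAK1 in check, and BH3-only proteins such as BIM and PUMA, when induced, occupy the survival members or act on the effectors directly. Once freed, BAX and BAK1 assemble into pores that let cytochrome c out, which leads to caspase activation. Blood cell lineages differ in the survival member they rely on: erythroid cells lean on BCL-xL, and MCL1 is needed by many myeloid cells.

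All values are FPKM, fragment numbers scaled for transcript length and for library size, so levels can be set beside each other between genes within a library. Summed FPKM were 765285 to 898547 in K562 and 599102 to 630579 in the libraries labelled MOLM14. From the spacing of low values, the effective depth was estimated at 60300000 to 80700000 fragments in K562 EVI1 libraries and 38000000 to 68500000 fragments in K562 control libraries; that of the libraries labelled MOLM14 was not estimated. MECOM, the overexpressed gene, was at 25.95, 23.9 and 22.1 FPKM in K562 EVI1 libraries and at 14.6, 11.2 and 10.9 FPKM in K562 control libraries, and at 17.8, 18.0 and 16.9 FPKM in EVI1 libraries labelled MOLM14 against 9.66, 9.02 and 8.55 FPKM in their controls. Gene names hold for the columns labelled MOLM14 only in the first 5510 rows, where the control means of both labels correlated across genes with a lowest Pearson r of 0.965 among windows of 500 rows. In the window after them r was 0.041. BAX and BAK1 lie in those rows. The other 7 members do not, and for them K562 alone is reported. The labels name no separate cultures, so p-values measure the spread between these samples, which may be technical.

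The libraries labelled MOLM14 were at or near 0 for 3 of 6 readable monocytic markers, including FLT3, the gene whose duplication the line is known for, and the other 3 were present. Among these 6 readable monocytic markers, HOXA9 and FLT3 were listed at 0 in every control library and averaged 0.0082 and 0.0030 FPKM in EVI1 libraries, and MPO averaged 0.033 FPKM in EVI1 and 0.026 FPKM in control libraries. LYZ, SPI1 and CD33 were at 35.5, 29.7 and 10.4 FPKM in EVI1 libraries and 80.9, 44.2 and 34.8 FPKM in control libraries. All 3 were called lower, CD33 with a log2 fold change of -1.65. In K562, LYZ, SPI1 and CD33 were also present, at 12.5, 18.6 and 53.3 FPKM in EVI1 libraries and 21.8, 28.8 and 24.7 FPKM in control libraries. Under the MOLM14 label, GATA1 and KLF1, erythroid factor genes, averaged 145 and 59.6 FPKM in EVI1 and 113 and 34.5 FPKM in control libraries. In K562, GATA1 and KLF1 averaged 164 and 61.3 FPKM in EVI1 and 150 and 81.0 FPKM in control libraries. Whether the MOLM14 label names the right line was not tested, so all values under it are given for "the libraries labelled MOLM14". In K562, the 9 erythroid and megakaryocytic markers each averaged at least 1 FPKM in both groups.

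MCL1, BCL2L1 and BAX were the abundant members in K562, and BCL2 itself stayed below 1 FPKM in every K562 library. Means were 110.2 ± 4.68 FPKM in EVI1 and 99.7 ± 2.61 FPKM in control libraries for MCL1 (SD, n = 3 each). They were 95.1 ± 8.20 and 97.7 ± 3.99 FPKM for BCL2L1, and 87.6 ± 3.19 and 96.1 ± 18.6 FPKM for BAX, in the same order of groups. In EVI1 libraries 92.3% of the 13800 tested genes had a lower mean than MCL1, and 65.9% had a lower mean than BCL2L2. In control libraries these shares were 91.2% and 54.9%. The ranges of MCL1, BCL2L1 and BAX over the 3 libraries did not overlap in EVI1 cells, where the order ran MCL1, BCL2L1, BAX. BCL2L1 and BAX were barely apart there, with a lowest BCL2L1 value of 90.29 FPKM and a highest BAX value of 90.24 FPKM. In control cells the ranges of these 3 genes overlapped, so their order there does not exceed the spread. BCL2L2 stood above BAK1 in EVI1 libraries and below it in control libraries, with no overlap of ranges in either group. BOK came next in both groups. BCL2A1 was above BCL2 in EVI1 libraries, and BCL2 above BCL2A1 in control libraries, again without overlap, and BCL2L10 was listed at 0 throughout.

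**Figure D1:**
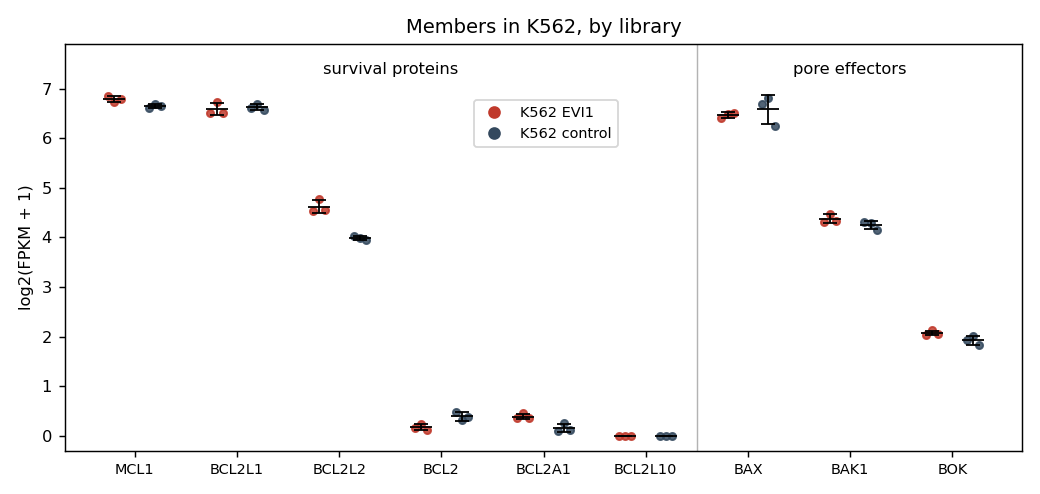
Expression of the 9 members in the 3 EVI1 and 3 control libraries of K562, as log2(FPKM + 1); points are libraries, horizontal marks are means and bars are SD. MCL1, BCL2L1 and BAX sit near the top in both groups, BCL2, BCL2A1 and BCL2L10 near 0, and the EVI1 libraries of BCL2L2 lie above its control libraries.

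Among the 6 members tested in K562, BCL2L2 rose and the other 5 did not pass the threshold. A gene was tested when it had at least 1 FPKM in at least 3 of the 6 libraries, and it was called when the adjusted p of the limma test was under 0.05. Of all tested genes, 51.9% were called, 28.2% higher and 23.7% lower, against 1 of 6 members, or 16.7%. In 4 of the 6 tested members every EVI1 library stood above every control library, against 32.4% of all tested genes; none stood wholly below, against 28.2%. With only 6 members these shares are counts and carry no test. Fold changes below are differences of mean log2(FPKM + 1), EVI1 minus control, a scale that understates changes of low genes.

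BCL2L2, which encodes the survival protein BCL-w, was at 22.1, 26.3 and 22.6 FPKM in EVI1 libraries and at 15.2, 14.9 and 14.5 FPKM in control libraries. Every EVI1 library was above every control library, and the ratio of means was 1.59. The log2 fold change was 0.63 (SE 0.087, 95% interval 0.44 to 0.83, limma adjusted p = 4.6e-04), and under the alternatives tried it lay between 0.47 and 0.68, with an adjusted p of at most 0.0114. The gene spans chromosome 14 from 23298790 to 23311759 on the plus strand in GRCh38, in the GENCODE 29 annotation.

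Several annotated genes overlap or adjoin BCL2L2. The readthrough gene BCL2L2-PABPN1 shares 813 of the 4189 exonic bases of BCL2L2 on the same strand, and reads there could have been split between the rows by the authors' counting. That row was at 8.62, 16.1 and 9.27 FPKM in EVI1 libraries and 7.88, 10.7 and 11.0 FPKM in control libraries, with overlapping groups, and was not called (log2 fold change 0.14, limma adjusted p = 0.603). BCL2L2 and the readthrough row added together were still called, at 0.47 (limma adjusted p = 0.0114). PABPN1, a nuclear poly(A)-binding protein gene downstream of BCL2L2, was at 193, 208 and 198 FPKM in EVI1 libraries and 154, 149 and 150.0 FPKM in control libraries (0.40, limma adjusted p = 0.0011). On the opposite strand PPP1R3E, which encodes a glycogen-targeting subunit of protein phosphatase 1, shares 206 exonic bases with BCL2L2. It averaged 17.6 ± 2.85 FPKM in EVI1 and 9.78 ± 0.720 FPKM in control libraries (SD, n = 3 each; log2 fold change 0.78, limma adjusted p = 8.3e-04). HOMEZ, a homeobox gene also on the opposite strand, overlaps the span of BCL2L2 but shares no exonic base with it, and averaged 55.3 ± 1.18 FPKM in EVI1 and 20.3 ± 0.375 FPKM in control libraries (1.40, limma adjusted p = 1.6e-06). The labels do not state whether counting used strand, so reads in the bases shared with PPP1R3E cannot be assigned, and their part in the BCL2L2 value was not tested.

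**Figure D2:**
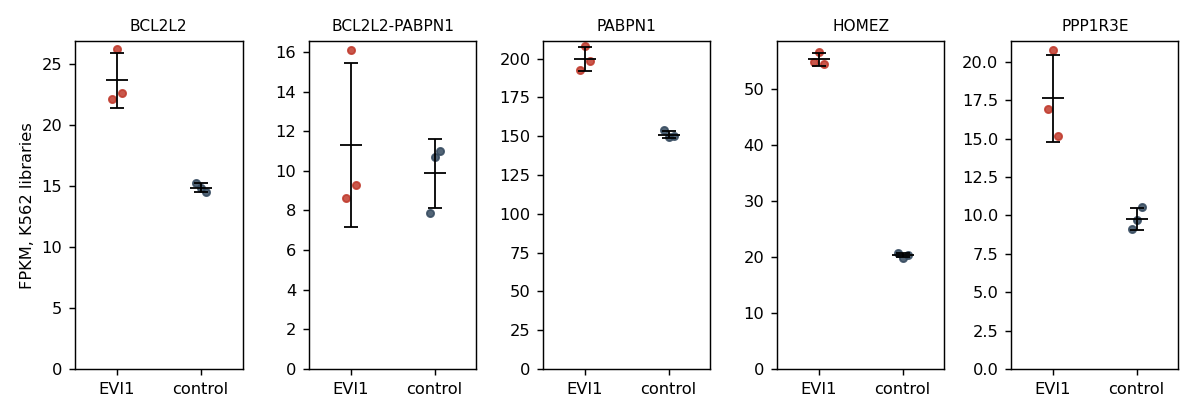
FPKM of BCL2L2, the readthrough row, PABPN1, HOMEZ and PPP1R3E in K562 EVI1 and control libraries, each panel with its own axis from 0; points are libraries, marks are means and bars are SD. EVI1 libraries lie above all control libraries in 4 panels and overlap them for BCL2L2-PABPN1.

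Clone-named genes aside, those whose pattern over the 6 K562 libraries was most like that of BCL2L2 were FAM157A, METTL3 and MAGED1. Their Pearson r was 0.9990, 0.9989 and 0.9988 in log2(FPKM + 1). METTL3, the catalytic subunit of the m6A RNA methyltransferase, averaged 97.2 FPKM in EVI1 and 55.1 FPKM in control libraries. Likeness of this size was common, since 4929 tested genes had an absolute r of at least 0.9 with BCL2L2 over the same 6 libraries, which fall into 2 groups.

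MCL1, the short-lived survival protein that many myeloid cells need, was at 115, 106 and 109.7 FPKM in EVI1 libraries and at 97.1, 102 and 99.7 FPKM in control libraries. All EVI1 libraries were above all control libraries, by a ratio of means of 1.11. It did not pass the threshold (log2 fold change 0.14, SE 0.066, 95% interval -0.0078 to 0.29, limma adjusted p = 0.1002; unadjusted p = 0.0603). The gene is on chromosome 1 from 150574551 to 150579738, minus strand.

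BCL2L1 was at 90.3, 104.6 and 90.5 FPKM in EVI1 libraries and at 96.9, 102 and 94.1 FPKM in control libraries, so the groups overlapped. It was not called (log2 fold change -0.04, SE 0.080, 95% interval -0.22 to 0.14, limma adjusted p = 0.696). Rows hold all transcripts of a gene, 9 annotated for BCL2L1 and 4 for MCL1, so the long survival forms and the short forms with opposite action cannot be told apart. The antisense RNA ABALON shares 1424 of the 3314 exonic bases of BCL2L1 and averaged 3.23 FPKM in EVI1 and 4.16 FPKM in control libraries.

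BCL2, the target of venetoclax, was at 0.113, 0.179 and 0.0890 FPKM in EVI1 libraries and at 0.404, 0.247 and 0.295 FPKM in control libraries. Every EVI1 library was below every control library, and the mean was 0.403 times that of control, but the gene lay below the expression filter and has no main test. On its longest annotated transcript these levels equal 47.7 to 77.8 fragments in EVI1 libraries and 111 to 127 fragments in control libraries. Without the filter BCL2 passed the threshold (log2 fold change -0.22, limma adjusted p = 0.0424).

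BCL2A1, a survival gene known as an NF-kB target in blood cells, was at 0.283, 0.373 and 0.279 FPKM in EVI1 libraries and at 0.0765, 0.196 and 0.0875 FPKM in control libraries. Every EVI1 library was above every control library at levels equal to 17.4 to 17.5 fragments in EVI1 and 2.37 to 11.2 fragments in control libraries on the longest transcript. Without the filter it passed the threshold (log2 fold change 0.23, limma adjusted p = 0.0350). BCL2L10, the remaining survival member, was listed at 0 in all 6 libraries, and 3 fragments would have given 0.0379 to 0.0503 FPKM in EVI1 libraries and 0.0417 to 0.0766 FPKM in control libraries. FPKM give no counts, so these fragment numbers are approximate and cover no error beyond counting.

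Among the effectors, BAX was at 84.0, 88.4 and 90.2 FPKM in K562 EVI1 libraries and at 101.6, 111 and 75.3 FPKM in K562 control libraries. The EVI1 libraries lay within the range of the controls, whose replicate 3 was the lowest of all 6. BAX was not called (log2 fold change -0.11, SE 0.13, 95% interval -0.42 to 0.19, limma adjusted p = 0.494). Without K562 control replicate 3 it was called lower, at -0.28 (limma adjusted p = 0.0166).

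BAK1, which sits on the outer membrane in resting cells, was at 19.0, 21.3 and 19.2 FPKM in K562 EVI1 libraries and at 18.9, 18.6 and 16.9 FPKM in K562 control libraries, with no overlap. It was not called (log2 fold change 0.13, SE 0.083, 95% interval -0.064 to 0.32, limma adjusted p = 0.235). BOK, an effector that survival members restrain poorly, was at 3.10, 3.37 and 3.16 FPKM in EVI1 libraries and at 2.81, 3.03 and 2.57 FPKM in control libraries, again with no overlap. It was not called either (0.15, SE 0.097, 95% interval -0.074 to 0.37, limma adjusted p = 0.232). Opposite-strand genes share 91 exonic bases with BAK1 (GGNBP1, averaging 0.371 FPKM in EVI1 and 0.046 FPKM in control libraries) and 201 with BOK (BOK-AS1, 0.164 FPKM in EVI1 and 0.063 FPKM in control libraries). The BAK1 pseudogene row BAK1P1 averaged 0.114 FPKM in EVI1 and 0.226 FPKM in control libraries, and BAK1P2 was listed at 0. EVI1 replicate 2, the library with the largest summed FPKM, was the highest of the 3 EVI1 libraries for BCL2, BCL2L1, BCL2L2, BCL2A1, BAK1 and BOK.

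Within each library the members' proportions do not depend on scaling between libraries. BCL2L2 supplied 9.70% to 11.1% of the summed FPKM of the survival members in EVI1 libraries and 6.77% to 7.26% in control libraries. BCL2L1 supplied 39.6% to 44.1% in EVI1 and 45.1% to 46.4% in control libraries, so these ranges did not overlap either, while those of MCL1 did (44.6% to 50.5% in EVI1 and 46.3% to 47.8% in control). Shares of a sum are tied to each other, so a rise of any member lowers the shares of the rest. In FPKM the BCL2L1 groups overlapped, and the gene was not called. BCL2 supplied 0.0399% to 0.0756% in EVI1 and 0.113% to 0.193% in control libraries. Of the effector sum, BAX was 78.2% to 80.1% in EVI1 and 79.5% to 83.8% in control libraries. The survival sum over the effector sum was 2.08 ± 0.085 in EVI1 and 1.85 ± 0.304 in control libraries (SD, n = 3 each). The ranges of 1.98 to 2.15 and 1.65 to 2.20 overlapped through control replicate 3 alone, the library lowest for BAX. Control replicates 1 and 2 were at 1.70 and 1.65, below every EVI1 library. These sums of messenger RNA weigh each gene equally and say nothing of protein.

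**Figure D3:**
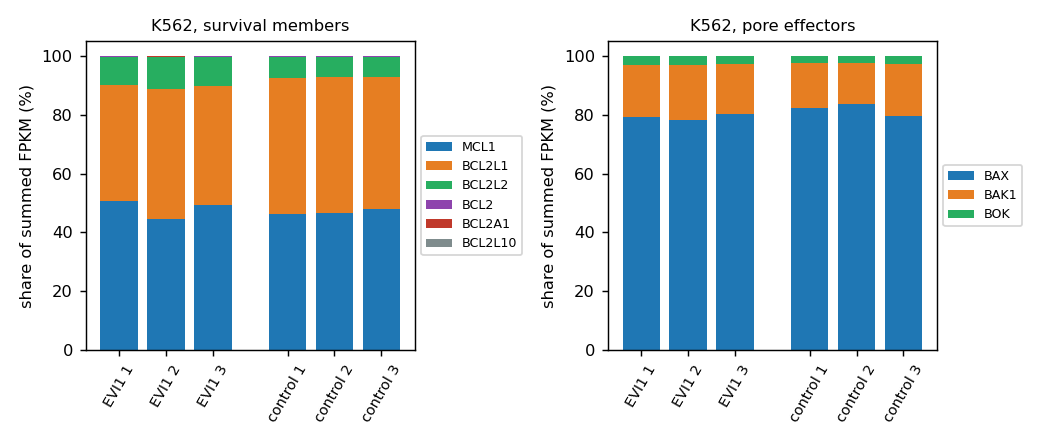
Share of each member in the summed FPKM of the survival members (left) and of the pore effectors (right), in percent, for each K562 EVI1 and control library. MCL1 and BCL2L1 fill most of every left bar, BCL2L2 takes 9.70% to 11.1% in EVI1 libraries and 6.77% to 7.26% in control libraries, and BAX fills most of every right bar.

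In the libraries labelled MOLM14 both readable members, BAX and BAK1, rose with EVI1 overexpression. Of the 13315 rows tested there, 54.2% were called, 27.4% higher and 26.8% lower. Every EVI1 library was above every control in 30.9% and below every control in 30.8%. These shares count rows, whether or not their names hold. BAX was at 75.8, 93.0 and 80.5 FPKM in EVI1 libraries and at 50.2, 60.5 and 58.9 FPKM in control libraries. No value of either group reached the other, and the ratio of means was 1.47. The log2 fold change was 0.55 (SE 0.098, 95% interval 0.32 to 0.77, limma adjusted p = 0.00246).

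BAK1 was at 16.7, 20.7 and 17.8 FPKM in EVI1 libraries labelled MOLM14 and at 12.5, 12.4 and 13.6 FPKM in their control libraries. The groups did not overlap, and the ratio of means was 1.43. The log2 fold change was 0.48 (SE 0.090, 95% interval 0.28 to 0.69, limma adjusted p = 0.00285). The ratio of BAX to BAK1 was 4.51 to 4.53 in EVI1 libraries and 4.02 to 4.87 in control libraries, and these ranges overlapped. In the same libraries the summed FPKM of the 6 readable monocytic markers was 74.8 to 76.1 in EVI1 and 159 to 162 in control, with HOXA9, FLT3 and MPO under 0.1 FPKM, and that of the 3 readable erythroid and megakaryocytic markers was 202 to 220 in EVI1 and 142 to 164 in control. The part of these shifts in the BAX and BAK1 values was not tested. In bulk samples, a change in the share of a cell type and a change in RNA per cell cannot be told apart.

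**Figure D4:**
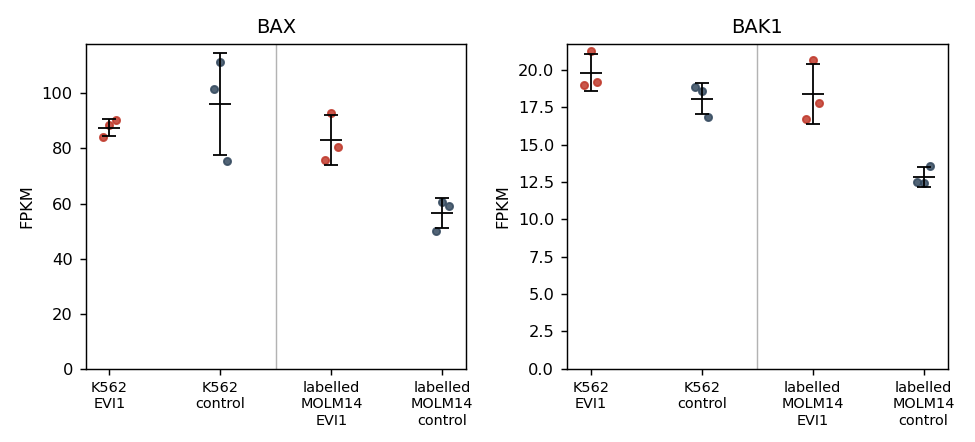
FPKM of BAX (left) and BAK1 (right) by library in K562 EVI1, K562 control, EVI1 labelled MOLM14 and control labelled MOLM14; points are libraries, marks are means and bars are SD. In the libraries labelled MOLM14 all EVI1 values exceed all control values for both genes, while the K562 groups overlap for BAX.

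The EVI1 effect on both effectors differed between the line labels. The effect in the libraries labelled MOLM14 minus that in K562 was 0.66 for BAX (SE 0.17, 95% interval 0.29 to 1.03, limma adjusted p = 0.0037) and 0.36 for BAK1 (SE 0.12, 95% interval 0.098 to 0.62, limma adjusted p = 0.0181). Such a difference was called for 64.9% of the 3697 genes tested, 34.1% in the positive and 30.8% in the negative direction. For BAK1 the call was lost without MOLM14 EVI1 replicate 2, its highest library, with 0.28 and a limma adjusted p of 0.0535 (0.0036 to 0.0535 over all alternatives). Only effects, not levels, were compared across labels.

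**Figure D5:**
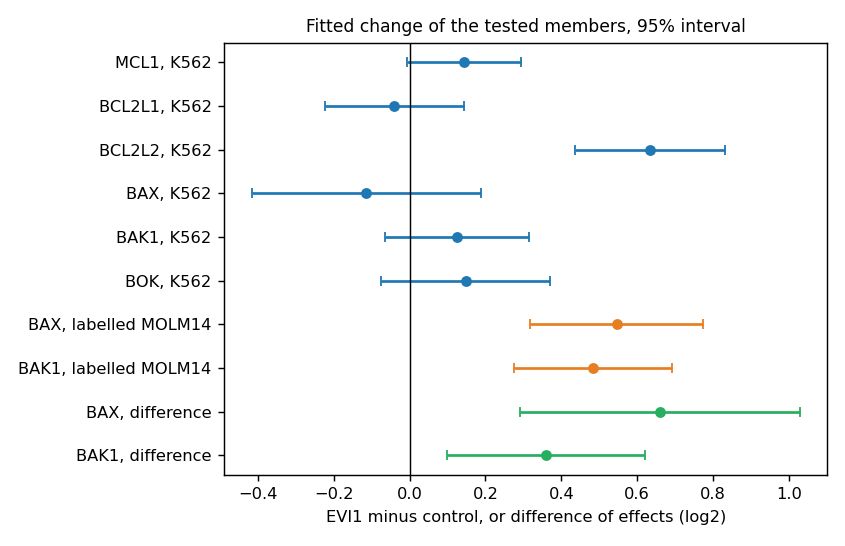
Fitted log2 change of each tested member, EVI1 minus control, in K562 and in the libraries labelled MOLM14, with the difference of both effects; points are estimates and bars are 95% intervals. The interval lies above 0 for BCL2L2 in K562, for BAX and BAK1 in the libraries labelled MOLM14 and for both differences.

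Promoter sequences are shown for BAX and BAK1 because they moved together in the libraries labelled MOLM14. RefSeq entries of GRCh38.p14 matched 6 of the 9 members. The 250 bases before the annotated start are given 5′ to 3′ on the strand of the gene, at chr19:48954625-48954874 (plus strand) for BAX and chr6:33580277-33580526 (minus strand) for BAK1, with matches in capitals. The motifs searched, on both strands, were CACGTG, then AGATAA with its reverse complement, then GATGAG with its reverse complement.
BAX: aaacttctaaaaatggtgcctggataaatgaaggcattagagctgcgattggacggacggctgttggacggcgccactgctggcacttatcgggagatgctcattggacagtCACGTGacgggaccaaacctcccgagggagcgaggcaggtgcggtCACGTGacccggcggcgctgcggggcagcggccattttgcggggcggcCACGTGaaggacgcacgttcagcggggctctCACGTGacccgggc
BAK1: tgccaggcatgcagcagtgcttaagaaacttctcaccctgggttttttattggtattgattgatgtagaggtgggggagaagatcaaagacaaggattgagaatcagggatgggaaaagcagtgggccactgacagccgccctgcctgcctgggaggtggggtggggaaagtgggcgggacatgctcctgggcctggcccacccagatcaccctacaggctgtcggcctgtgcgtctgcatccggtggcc
The BAX window held 4 copies of CACGTG, the palindromic E-box that MYC and related factors can bind, beginning 138, 93, 45 and 14 bases before the start. Of 35116 windows of this length, 6.34% held CACGTG and 5 (0.0142%) held 4 or more copies. The BAK1 window held none of the 3 motifs. AGATAA, a core shared by GATA factors and the first zinc finger domain of EVI1, was in 9.17% of windows and in none of the 7 windows of the 6 matched members. GATGAG, of the second domain, was in 10.1% of all windows. It occurred 1 time in the BCL2A1 window and 1 time in 1 of 2 BCL2L1 windows, and not in those of BAX, BAK1, BCL2 or BOK. A match is a string of letters and not a measured site.

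Other genes of the mitochondrial pathway moved in both directions in K562. So did all tested genes, of which 28.2% were called higher and 23.7% lower. Under the MOLM14 label these shares were 27.4% and 26.8% of the tested rows. The counts per list below stand beside these shares and carry no test. Of 8 BH3-only genes 6 were tested, of which 4 rose, 1 fell and 1 was not called, with a median log2 fold change of 0.81 against 0.0053 over all tested genes. PMAIP1, whose product NOXA binds MCL1, averaged 23.2 ± 2.39 FPKM in EVI1 and 7.66 ± 0.349 FPKM in control libraries (SD, n = 3 each; log2 fold change 1.48). BBC3, encoding PUMA, averaged 17.7 ± 3.37 FPKM in EVI1 and 6.88 ± 0.651 FPKM in control libraries (1.24), and BMF, which is tied to the cytoskeleton in resting cells, 4.38 ± 0.433 and 1.37 ± 0.236 FPKM (1.18). Under the MOLM14 label BBC3 fell instead, at 4.79 ± 0.426 FPKM in EVI1 and 19.1 ± 1.79 FPKM in control libraries, a difference of effects of -3.03 (limma adjusted p = 2.6e-09). Of 4 BH3-only genes tested there, 1 rose (BID, which links death receptors to mitochondria, 0.38), 1 fell and 2 were not called, with a median of 0.075 against -0.0066 over all rows.

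Of 15 genes for the apoptosome, caspases and released mitochondrial factors, 3 rose, 5 fell and 7 were not called in K562, with a median of -0.028. CASP8, the initiator of the death receptor pathway, averaged 7.07 ± 0.399 FPKM in EVI1 and 13.0 ± 1.25 FPKM in control libraries (SD, n = 3 each; log2 fold change -0.79). Under the MOLM14 label, 2 of 5 tested rose, 2 fell and 1 was not called, with a median of -0.18. CASP2 rose there (0.70), while CASP10 (-0.70) and APAF1, the scaffold of the apoptosome (-0.60), fell.

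Of 4 tested genes of the inhibitor of apoptosis (IAP) family, 0 rose, 1 fell and 3 were not called in K562 (median -0.22). The one that fell was XIAP, at 6.97 ± 0.424 FPKM in EVI1 and 10.7 ± 0.961 FPKM in control libraries (log2 fold change -0.56). Of 5 IAP genes tested under the MOLM14 label, 2 rose, 2 fell and 1 was not called (median -0.12). BIRC5 (survivin, also a mitotic protein) had a log2 fold change of 0.47 there, BIRC2 one of -0.38 and BIRC3 one of -1.34. BIRC3 passed the filter there through the control libraries alone, at 0.397 FPKM in EVI1 and 2.56 FPKM in control libraries.

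Genes listed as partners at the mitochondrial outer membrane counted 1 of 11 higher, 4 lower and 6 not called in K562 (median -0.17). The higher one was OPA1, which shapes the cristae of the inner membrane, with a log2 fold change of 0.46. The import receptor subunit gene TOMM22, whose product has been described as a docking point for BAX, had one of -0.50 and the channel gene VDAC3 one of -0.32. Of 5 tested under the MOLM14 label, 2 rose, 0 fell and 3 were not called (median 0.12), with TOMM22 at 0.65 and the fusion gene MFN2 at 0.31. The difference of effects on TOMM22 was 1.15 (limma adjusted p = 3.4e-05).

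More distant BCL2 relatives counted 0 higher, 1 lower and 3 not called of 4 in K562 (median -0.055), the lower one being the mitophagy receptor gene BNIP3 at -0.58. With the MOLM14 label both tested relatives fell (median -1.08): BNIP3L, a mitophagy receptor of maturing red cells, averaged 30.0 ± 1.79 FPKM in EVI1 and 71.2 ± 6.77 FPKM in control libraries, and BCL2L13 38.9 ± 0.994 and 75.5 ± 1.72 FPKM.

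Regulators of the MCL1 protein counted 2 higher, 2 lower and 4 not called of 8 in K562 (median 0.070). The deubiquitinase gene USP13 was at 0.748 FPKM in EVI1 and 2.37 FPKM in control libraries (-0.95) and passed the filter through the control libraries, the kinase gene GSK3A was at -0.35 and GSK3B at 0.21. With the MOLM14 label, 1 of 5 rose (GSK3A, 0.56), 1 fell (USP13, -0.62) and 3 were not called (median -0.039).

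Splicing factors known to act on BCL2L1 or MCL1 transcripts counted 1 higher, 4 lower and 5 not called of 10 in K562 (median -0.17). RBM11 averaged 6.88 ± 0.706 FPKM in EVI1 and 1.97 ± 0.345 FPKM in control libraries (log2 fold change 1.41), HNRNPH1 299 ± 9.63 and 468 ± 13.0 FPKM (-0.64), and SRSF3 348 ± 14.7 and 537 ± 46.5 FPKM (-0.62). With the MOLM14 label, 1 of 4 rose and 3 were not called (median -0.027), SRSF3 rising at 508 ± 35.8 FPKM in EVI1 and 314 ± 42.1 FPKM in control libraries (0.70).

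Some markers of other cell types differed between the K562 groups too. The summed FPKM of 9 T and NK cell markers was 102 to 109.6 in EVI1 and 43.2 to 49.0 in control libraries. Only CD3D, TRBC2 and TRAC were tested, and all 3 were called higher, at 60.8, 33.4 and 8.66 FPKM in EVI1 libraries and 38.5, 5.81 and 0.587 FPKM in control libraries. TRAC passed the filter through the EVI1 libraries alone. The 6 markers not tested averaged under 1 FPKM in both groups, among them NKG7 at 0.288 FPKM in EVI1 and 0.725 FPKM in control libraries and CD2 under 0.1 FPKM in both. The sum of 12 monocytic markers overlapped between groups, at 167 to 189 FPKM in EVI1 and 148 to 174 FPKM in control libraries, with FLT3 and HOXA9 listed at 0. Of 5 tested, 2 were called higher (CD33 and MEIS1), 2 lower (LYZ and SPI1) and 1 was not called, with a median log2 fold change of 0.044. The 9 erythroid and megakaryocytic markers summed to 12002 to 15102 FPKM in EVI1 and 9144 to 9866 FPKM in control libraries, mostly through HBE1 (6720 FPKM in EVI1 and 3341 FPKM in control libraries) and HBG2 (5152 and 4745 FPKM). Of these 9, HBE1, HBG1 and ITGA2B were called higher, HBZ (-0.46) and KLF1 (-0.40) lower, and 4 were not called. Their part in the K562 values above was not tested.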

How the data were processed

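RNA was sequenced from total RNA libraries made with a TruSeq kit, per the labels. Their extraction protocol names intestinal cells of mouse, which goes against the human cell lines given as source. The authors deposited FPKM values per gene, made with STAR, Cufflinks and Cuffnorm on GRCh38, per the submitters' processing notes; tool versions, annotation and strand use are not given in the sources used here. Groups and replicate numbers came from sample titles.

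The table held 58191 rows. Symbols that a spreadsheet had turned into dates (27) were restored from the identifier, and 1 row blank in 3 columns was left out of fits that use those columns. Names were used for columns labelled MOLM14 only before the first identifier ending _PAR_Y. For K562, depth was estimated from low FPKM of genes with 1 transcript longer than 1000 bases, with 96.3% to 97.0% of low values within 0.05 log2 of a whole fragment number.

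Expression was analysed as log2(FPKM + 1) on rows with at least 1 FPKM in at least 3 libraries, by limma 3.58.1 (R 4.3.3) with a mean-variance trend, two-sided, Benjamini-Hochberg adjusted over all rows of each fit: 6 libraries per line label, and 12 for the difference of effects on rows readable under both. The steps were tested on simulated data. Tables were handled in Python 3.11.15 with pandas 2.3.3. Alternatives were a pseudocount of 0.1, no filter, 3 scalings, no trend, a replicate block and leaving out each library. Named genes were the 9 members, MECOM, overlapping or copied genes, the 3 largest called changes per list and the 3 genes most like each member called in K562. For the last of these, genes named after sequenced clones were passed over. Some genes that this rule selects are not reported here. The members and lists were chosen with earlier results of these data known. Spans are from GENCODE 29 and promoters from RefSeq.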

Additional observations from a re-analysis of the deposited data

Results flagged for a closer look

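The effect of EVI1 overexpression on BAX differed between the line labels, with a difference of 0.66 log2 units (limma adjusted p = 0.0037), and that on BAK1 by 0.36 (limma adjusted p = 0.0181). Both were picked out because the interaction test passed its threshold, as it did for 64.9% of the genes tested. In the libraries labelled MOLM14, 3 of 3 EVI1 libraries exceeded every control for both genes; in K562, 0 of 3 did for BAX and 3 of 3 for BAK1. Groups of 3 libraries were not tested for outlying samples.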

How the results depend on the processing

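Of 286 values recomputed under another setting, 277 kept their direction and their side of the threshold, or, for counts, stayed within 1.5 times. Mean ratios of survival to effector sums counted as kept when leaving out a library moved them by less than the SD. That holds for any 3 values, so it tests nothing. The number of members called in K562 was 1 as reported, 3 without the expression filter (BCL2L2, BCL2 and BCL2A1), and 1 to 2 when each library was left out in turn; BAX was the second, without K562 control replicate 3 (-0.28). It was 2 throughout for the libraries labelled MOLM14, and 1 to 2 for the difference of effects, where BAK1 was lost without MOLM14 EVI1 replicate 2. Changes of members that were not called turned sign for 2 genes: BOK was at -0.058 under quantile normalization (limma adjusted p = 0.629), and BAX at 0.00065 without K562 control replicate 2 (limma adjusted p = 0.998). The cause was not tested. No pairing of libraries by replicate number was visible in the values. Deviations of same-numbered libraries correlated at -0.21 to 0.13 in K562 and at -0.053 to -0.0087 in the libraries labelled MOLM14. In the same order, 1 of 6 and 0 of 6 libraries correlated best with their own number. With so few libraries per group, these values cannot show whether same-numbered libraries were handled together. With the replicate block 1 member was called in K562, 2 were under the MOLM14 label and 2 by the test of the difference, with 3857 genes higher and 3187 lower in K562, against 3898 and 3265 without it. Adding the readthrough row to BCL2L2 was chosen after seeing the data. The low depth of K562 control replicate 1, at about 38000000 fragments, limits BCL2A1 most, where 1 fragment equals 0.0323 FPKM.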
